A study of Homo sapiens with 16 samples.

Results

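The second day of 5-fluorouracil in SW620 cells with ATF4 knocked down was examined as 1 comparison, 48 h of drug against 24 h, over all genes that passed a filter on low counts. SW620 is an established human colorectal cancer cell line. Messenger RNA was purified on poly-T beads from total RNA and sequenced. The tested cells carried a short hairpin RNA against ATF4 (shATF4) and received 5 µM 5-fluorouracil (5-FU) for 48 h (2 libraries) or 24 h (3 libraries). The shATF4 cells without drug gave 3 further libraries. Cells with a scrambled hairpin (scramble) followed the same scheme, with 2 libraries at 48 h of the same drug dose, 3 at 24 h and 3 without drug, so that 5 of the 16 libraries entered the comparison itself. The 4 libraries placed at 48 h were placed by their titles and by the study's design text, which has a 48 h group; their treatment tag gives 24 h. Each line stands for 1 hairpin, no untreated library was taken at a matched later time, and hours of drug therefore cannot be told apart from hours in culture. Nothing in the labels says whether replicates were separate cultures, so p-values measure the spread between these libraries, which may be technical.

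5-FU is a pyrimidine analog. Its metabolites inhibit thymidylate synthase, which makes the thymidine nucleotide for DNA, and are built into RNA and DNA. ATF4 is a transcription factor whose mRNA is translated when kinases such as PERK phosphorylate the initiation factor eIF2, a route called the integrated stress response. Its known targets include amino acid synthesis enzymes, amino acid transporters, aminoacyl-tRNA synthetases and stress genes such as DDIT3, CHAC1 and TRIB3. The study's title links this pathway and TNF to resistance of colorectal cancer cells to chemotherapy.

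Of 58735 genes in the deposited table, 17309 passed the filter and held 99.9% of the counts. Of these, 8349 differed between 48 h and 24 h in shATF4 cells (48.2%; edgeR quasi-likelihood test, Benjamini-Hochberg adjusted p under 0.05, used for every call here). In all, 4101 genes rose (23.7%) and 4248 fell (24.5%), with a median log2 change of 0.01. Rises were more often large. A change of at least 2-fold was called for 2297 genes, 1716 higher and 581 lower at 48 h, and one of at least 4-fold for 620 genes, 534 higher and 86 lower. Under upper-quartile scaling 58.6% of the called genes were higher, against 49.1% under the scaling used here (TMM, trimmed mean of M-values).

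Library totals lay between 14571611 and 17824188 counts over all 16 libraries. The TMM factors were 1.14 and 1.15 in the 48 h libraries of shATF4 cells, against 0.964 to 0.999 in those at 24 h, so levels below are given as CPM, counts scaled to a fixed total on the TMM-scaled library size. Genes with at least 1 count numbered 25284 to 25345 per library at 48 h and 23352 to 23901 at 24 h. The third 24 h library stood apart from its group: RN7SL2, the RNA of the signal recognition particle, which has no poly(A) tail, took 0.0695% of its counts, against 0.0218% and 0.0234% in the other 24 h libraries. Without it 8165 genes were called, 3988 higher and 4177 lower at 48 h, and results that rest on it are given with and without it. Summed markers of colorectal epithelium, such as KRT8 and EPCAM, were at 6493 to 6954 CPM at 48 h and 10138 to 10806 CPM at 24 h, and 1 of the 8, LGALS4, stayed under 10 counts. Most of the sum was KRT8, KRT18 and KRT19; EPCAM was at 396 to 400 CPM at 48 h and 424 to 434 CPM at 24 h, and CDX2 at 34.7 to 35.5 CPM at 48 h and 12 to 15.9 CPM at 24 h. Summed leukocyte markers were at 23.8 to 23.9 CPM at 48 h and 10.2 to 16 CPM at 24 h, nearly all of it LYZ, with PTPRC and CD3E at 0 to 3 counts per library. Fibroblast markers summed to 56.5 to 63.8 CPM at 48 h and 56.2 to 60.3 CPM at 24 h, with DCN at 0, and endothelial markers to 6.74 to 7.8 CPM at 48 h and 8.04 to 10.6 CPM at 24 h. Most of the fibroblast sum was LUM (37.8 to 42.4 CPM at 48 h and 29.8 to 38.9 CPM at 24 h) and COL1A1 (13.0 to 15.8 CPM at 48 h and 13.1 to 21.7 CPM at 24 h). The part of these markers in the results was not tested. In bulk RNA, fewer cells of a kind and less RNA per cell cannot be told apart.

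ATF4 stayed low over the second day. It had 114 and 118 CPM at 48 h and 91.1, 109 and 130 CPM at 24 h in shATF4 cells, with overlapping groups, against means of 332 CPM at 48 h and 279 CPM at 24 h in scramble cells. Its change in shATF4 cells was 0.08 ± 0.10 (log2, SE; adjusted p = 0.543). Without the third 24 h library the change was 0.22 with an adjusted p of 0.0178, and without the first it was -0.035, so 1 library decides its sign.

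CDKN1A, the p53-induced inhibitor of cyclin-dependent kinases, had 47.0 and 47.8 CPM at 48 h and 15.7, 18.4 and 18.3 CPM at 24 h. Its level without drug averaged 1.78 CPM. The rise of the second day was 2.72-fold (log2 1.44 ± 0.14, adjusted p = 7.45e-08). TYMS, which encodes the drug's target thymidylate synthase, had 37.0 and 42.2 CPM at 48 h and 55, 61.9 and 55.6 CPM at 24 h, a fall of 1.45-fold (adjusted p = 2.63e-05). The plot of levels by library shows both lines for these and other genes.

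The 10 largest log2 rises named here are those among called protein-coding genes that averaged 2 CPM or more over the 5 libraries and no overlap between the groups. Several had few counts at 24 h (12, 10 and 3 for IQGAP2; 5, 5 and 7 for CES1), so their folds are imprecise. IQGAP2, a scaffold protein, had 9.33 and 9.83 CPM at 48 h and 0.749, 0.691 and 0.175 CPM at 24 h (17.9-fold, adjusted p = 5.04e-09). PIM1, a serine/threonine kinase that promotes survival, had 16.2 and 13.8 CPM at 48 h and 0.936, 1.17 and 0.757 CPM at 24 h (15.7-fold, adjusted p = 9.86e-11). CLU encodes clusterin, a secreted chaperone that blocks cell death. It had 56.4 and 57.6 CPM at 48 h and 4.18, 4.28 and 3.84 CPM at 24 h, a 13.9-fold rise (adjusted p = 2.35e-14). The lack of overlap between the groups was part of the rule that chose these genes. The other genes of this group were CES1, a carboxylesterase (13.6-fold), FBXO32, the ubiquitin ligase atrogin-1 (12.4-fold), MAFA, a transcription factor known from pancreatic beta cells (12.2-fold), WNT9A, a Wnt ligand (10.9-fold), REPS2 (10.8-fold), ITGB2, the beta-2 integrin subunit (10.8-fold), and HIST2H2BE, a histone H2B gene (10.1-fold).

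By the same rule the largest log2 fall was that of TNC, which encodes the matrix protein tenascin-C. It had 106 and 102 CPM at 48 h and 1288, 1198 and 1079 CPM at 24 h, 11.4-fold lower at 48 h (log2 -3.52 ± 0.09, adjusted p = 6.12e-17). Without drug it averaged 955 CPM, below its 24 h level and far above that at 48 h. ST18, a zinc finger transcription factor, had 4.01 and 3.77 CPM at 48 h and 34.2, 33.7 and 32.7 CPM at 24 h (8.61-fold lower, adjusted p = 8.03e-13). ADAMTS18, a secreted metalloprotease, had 4.78 and 3.55 CPM at 48 h and 30.4, 28.5 and 31.1 CPM at 24 h (7.20-fold lower, adjusted p = 7.06e-13). GPAT2 fell 9.71-fold, AFF2 6.74-fold, DEC1 6.36-fold, LIX1 6.31-fold, MYRIP 6.18-fold, GABBR2, a subunit of the GABA-B receptor, 6.13-fold and MGAM2 5.52-fold.

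In absolute CPM, the largest rises among called protein-coding genes were in PLEC, APLP2, SLC3A2, CTSB and PSAP. CTSB encodes the lysosomal protease cathepsin B. It had 469 and 500 CPM at 48 h and 208, 213 and 223 CPM at 24 h (2.26-fold, adjusted p = 2.77e-11). PLEC, the cytoskeletal linker plectin, had 1177 and 1382 CPM at 48 h and 1153, 1011 and 657 CPM at 24 h (log2 0.44, adjusted p = 0.0252). Its call was lost without the third 24 h library (adjusted p = 0.0758), without the second 48 h library (0.225), in DESeq2 (0.0631) and with the 5 libraries alone (0.0860). The largest losses in CPM among called protein-coding genes were in EEF1A1, KRT8, RPS2, ENO1 and GAPDH. EEF1A1, a translation elongation factor, had 5132 and 5215 CPM at 48 h and 7836, 8255 and 8987 CPM at 24 h, against a mean of 14160 CPM without drug.

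The gene lists used below are shown together in the plot of list members, and were described by counts and medians without a test of the list. Counts of members are to be read against 23.7% higher and 24.5% lower among all genes. Shares near these were those of p53 targets lower (23.8%), recombination and repair genes lower (23.5%), Wnt targets higher (23.5%) and colon differentiation genes higher (23.1%), which show nothing particular to those lists.

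**Figure D1:**
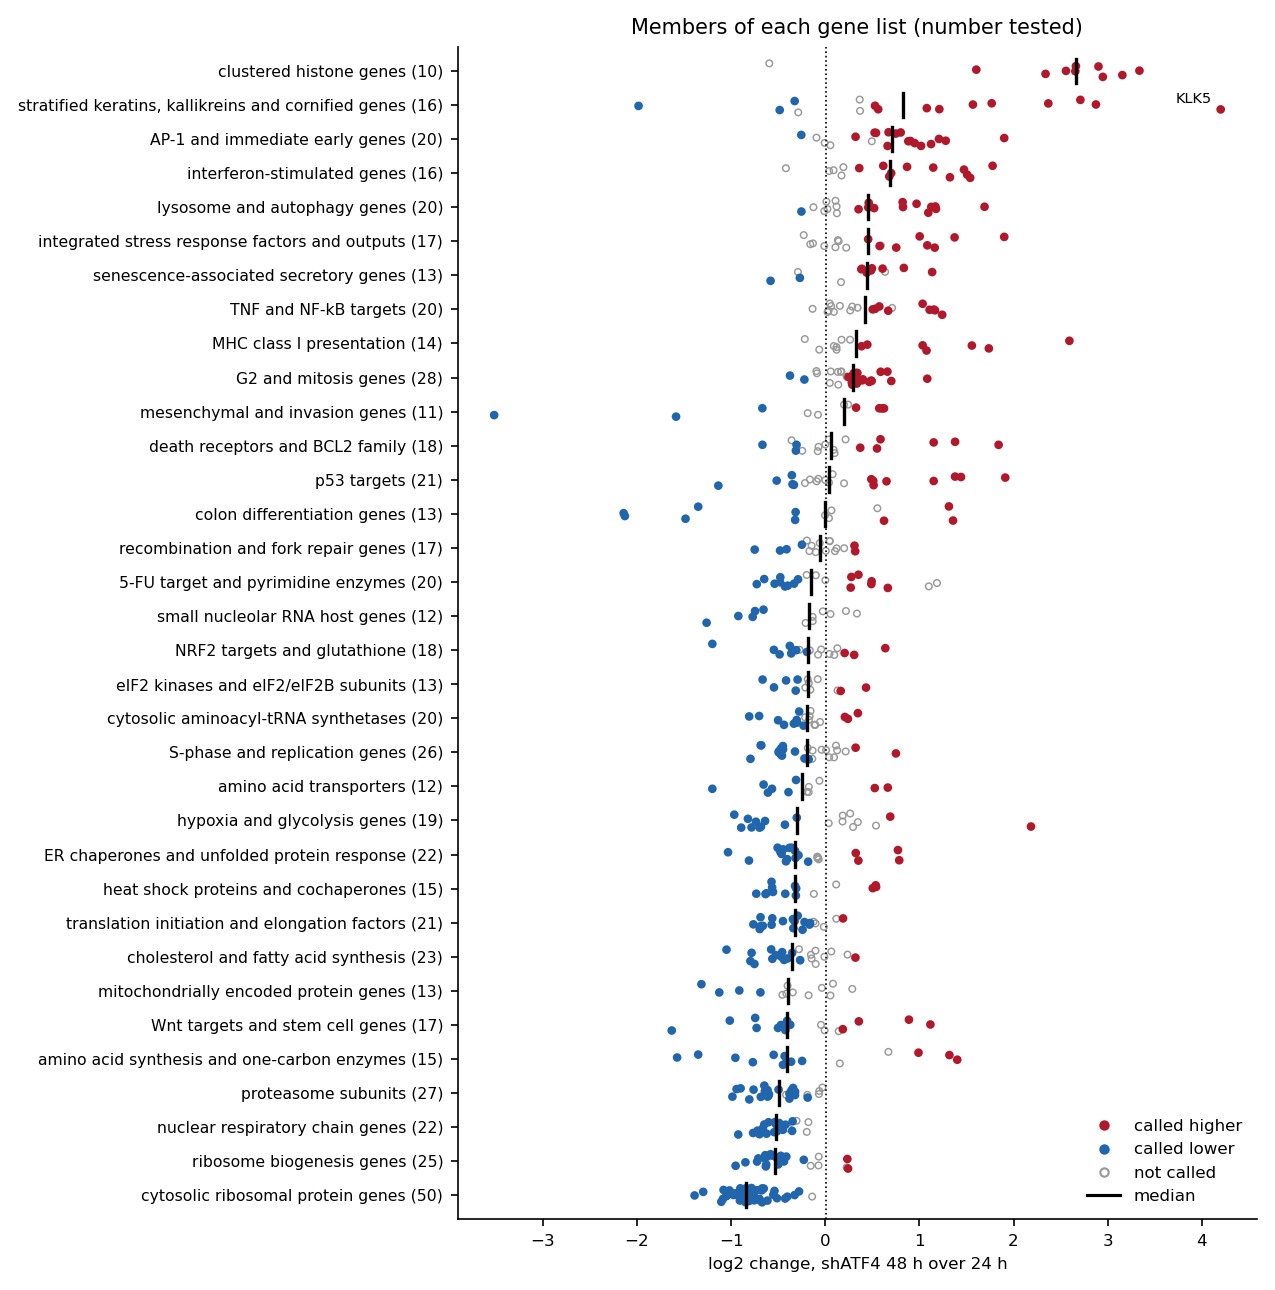
Log2 change of each list member in shATF4 cells, 48 h over 24 h (horizontal axis), by list (rows, with the number of members tested). Red points rose, blue points fell, open points were not called, black bars are medians and the dotted line is the median of all genes; KLK5 is drawn at the right edge because its 24 h counts were 0. Histone genes lie at the top with a median of 2.66 and ribosomal protein genes at the bottom with a median of -0.84.

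Of 18 integrated stress response factors and outputs listed, 17 passed the filter, and of these 8 rose and none fell, with a median log2 change of 0.46. ATF3, a stress-induced transcription factor, had 7.85 and 8.47 CPM at 48 h and 1.81, 2.21 and 2.50 CPM at 24 h (3.74-fold, adjusted p = 2.16e-07). CHAC1, a glutathione-degrading enzyme induced by ATF4, had 11.2 and 12.3 CPM at 48 h and 5.43, 4.42 and 3.78 CPM at 24 h (2.59-fold, adjusted p = 1.23e-06). SESN2, a brake on mTORC1 signalling, rose 2.0-fold and PPP1R15A, the GADD34 subunit that returns eIF2 to its unphosphorylated form, rose 1.49-fold. DDIT3, which encodes the pro-apoptotic factor CHOP, did not pass the test, with 9.93 and 11.3 CPM at 48 h and 8.23, 9.12 and 11.5 CPM at 24 h (log2 0.13 ± 0.15, adjusted p = 0.474). GDF15, a stress-induced cytokine, had 151 and 165 CPM at 48 h and 171, 180 and 168 CPM at 24 h (log2 -0.13, adjusted p = 0.206). Both 48 h libraries were below all 24 h libraries for GDF15, while for DDIT3 the groups overlapped. ATF3 and CHAC1 were the 2 of 16 list members with a promoter window (250 bases before to 50 after the annotated start, RefSeq, GRCh38.p14) in which the CEBP-ATF composite motif TGATGNAA was found on either strand; 3.67% of all 27305 windows hold it. In the amino acid synthesis list 2 of 10 windows held it, that of MTHFD1L, which fell (log2 -0.95), and that of ASNS, which rose (log2 1.32). The windows of ATF3 and CHAC1 are shown with the motif in capitals (for CHAC1 on the opposite strand), from chr1:212565197-212565256 on the plus strand for ATF3 and chr15:40953241-40953300 on the plus strand for CHAC1.
ATF3: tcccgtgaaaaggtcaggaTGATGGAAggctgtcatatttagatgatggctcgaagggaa
CHAC1: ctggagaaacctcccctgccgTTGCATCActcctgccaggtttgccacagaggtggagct

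The enzymes of amino acid synthesis and one-carbon metabolism went mostly down: 10 of 15 fell, 3 rose, and the median was -0.41. PHGDH, the first enzyme of serine synthesis, was the exception with the smallest p. It had 61.3 and 67.3 CPM at 48 h and 23.6, 25.1 and 24.3 CPM at 24 h (2.64-fold, adjusted p = 4.88e-10). ASNS and CTH, chosen as examples after their values were seen, rose 2.49-fold and 1.99-fold, ASNS from counts that gave at most 1.09 CPM. PYCR1, an enzyme of proline synthesis, had 97.5 and 106 CPM at 48 h and 243, 278 and 258 CPM at 24 h (2.55-fold lower, adjusted p = 8.70e-10). The mitochondrial folate enzymes SHMT2 and MTHFD1L were 1.70-fold and 1.94-fold lower. Of 12 amino acid transporters 2 rose and 6 fell (median -0.25). SLC3A2, the shared heavy chain of several transporters, had 878 and 964 CPM at 48 h and 592, 673 and 654 CPM at 24 h, 1.44-fold higher, while the cystine carrier SLC7A11 was 2.30-fold lower. Of 20 cytosolic aminoacyl-tRNA synthetases 3 rose and 9 fell (median -0.19), led by FARSB (1.75-fold lower) and KARS (1.63-fold lower). Of 13 eIF2 kinases and subunits 2 rose and 5 fell (median -0.19). EIF2AK4, the amino acid sensor GCN2, rose 1.35-fold and EIF2S1, the subunit that is phosphorylated, fell 1.59-fold. The 5 falls became 3 under upper-quartile scaling, 3 without either 48 h library and 2 with the 5 libraries alone.

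Of 20 TNF and NF-kB targets 9 rose and none fell, with a median of 0.42. CCL20, a chemokine for CCR6-bearing lymphocytes, had 173 and 147 CPM at 48 h and 61.1, 69.1 and 91.8 CPM at 24 h, against a mean of 12.2 CPM without drug (2.16-fold over the second day, adjusted p = 3.31e-07). ICAM1, a leukocyte adhesion molecule, had 25.2 and 28.3 CPM at 48 h and 12.2, 14.2 and 9.72 CPM at 24 h (2.22-fold, adjusted p = 2.78e-06). IL32 rose 2.24-fold and CXCL1, a neutrophil chemokine, 2.05-fold. CXCL8, which encodes interleukin-8, had 99.2 and 69.7 CPM at 48 h and 84.2, 84.0 and 110 CPM at 24 h, so the groups overlapped (log2 -0.13, adjusted p = 0.496). Its sign turned without the third 24 h library (0.0053) and without the second 48 h library (0.10). TNF itself was near the lower end of what these libraries resolve, with 1.54 and 1.80 CPM at 48 h and 0.811, 1.52 and 0.757 CPM at 24 h (log2 0.71 ± 0.46, adjusted p = 0.210).

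The NF-kB motif (GGG, any 2 bases, TTTCC) was found on either strand in the windows of 10 of 18 members of that list, against 1.92% of all windows. Of these genes BIRC3, CCL20, CXCL1, CXCL2 and IL32 rose, while NFKBIA, NFKB1, TNFAIP3, CXCL3 and LTB were not called. The same motif letters stand at the same distance from the start of CXCL1 and CXCL3, yet CXCL1 rose and CXCL3 was not called (log2 0.27, adjusted p = 0.155). A match is a description of the letters and no evidence that the factor binds. The 4 sequences are shown to set these neighbours beside CCL20 and IL32, with the motif in capitals (CCL20 on the opposite strand). They are chr2:227813742-227813801 (plus) for CCL20, chr4:73869293-73869352 (plus) for CXCL1, chr4:74038730-74038789 (minus) for CXCL3 and chr16:3065283-3065342 (plus) for IL32, from RefSeq on GRCh38.p14.
CCL20: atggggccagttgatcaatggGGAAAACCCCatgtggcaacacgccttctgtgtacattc
CXCL1: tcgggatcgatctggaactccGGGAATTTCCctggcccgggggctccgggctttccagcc
CXCL3: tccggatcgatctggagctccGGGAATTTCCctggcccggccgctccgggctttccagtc
IL32: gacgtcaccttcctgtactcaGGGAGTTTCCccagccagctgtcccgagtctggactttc

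Secreted factors of the senescence-associated list moved in the same direction, with 8 of 13 higher, 2 lower and a median of 0.44. IGFBP3, which binds insulin-like growth factors, rose 2.20-fold. AREG, a ligand of the EGF receptor, had 19.4 and 16.8 CPM at 48 h and 9.73, 10.2 and 10.4 CPM at 24 h (1.78-fold, adjusted p = 5.92e-06). PLAU, the urokinase protease, and TIMP1, a metalloprotease inhibitor, rose 1.41-fold and 1.36-fold. MMP7, a matrix metalloprotease named after its value was seen, was 1.5-fold lower. The list has 20 genes, and those outside the 13 did not pass the low-count filter.

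Of 18 interferon-stimulated genes listed, 16 passed the filter, and of these 11 rose and none fell, with a median of 0.69. IFI6, a mitochondrial survival protein, had 65.8 and 82.6 CPM at 48 h and 20.4, 24.6 and 20 CPM at 24 h (3.43-fold, adjusted p = 1.65e-09). IRF7, the regulator of type I interferon genes, had 27.7 and 36.1 CPM at 48 h and 11.9, 12.3 and 8.85 CPM at 24 h (2.91-fold, adjusted p = 3.47e-08). OAS3, a sensor of double-stranded RNA, rose 1.6-fold. Genes of MHC class I antigen presentation followed, with 7 of 14 higher, none lower and a median of 0.32. HLA-B had 95.0 and 103 CPM at 48 h and 16.4, 18.7 and 14.4 CPM at 24 h, a 6.04-fold rise (adjusted p = 7.36e-14). HLA-E rose 2.11-fold, HLA-C 1.36-fold and PSMB9, an immunoproteasome subunit, 2.94-fold. HLA genes share long stretches of sequence, so the split of reads among them is uncertain.

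The interferon-stimulated response element (GAAA, any 2 bases, GAAA) was found on either strand in 9 of 11 windows of the interferon list and 7 of 11 of the MHC class I list, against 3.65% of all windows. In the MHC class I list, HLA-F and TAP2 held it and rose, while B2M, TAP1, TAPBP, PSMB10 and ERAP1 held it and were not called. HLA-B, HLA-C, HLA-E and PSMB9 were not among the genes with a match. In the interferon list, windows holding it belonged to genes that rose (IFI6, BST2) and to genes that were not called (IFIT3, log2 0.04, and IFIH1, log2 0.09). The sequences of IFI6, the list's leading gene, and BST2, which tethers virus particles at the cell surface, are shown with each match in capitals; 3 matches stand in IFI6 and 2 overlapping ones in BST2. They are chr1:27672268-27672357 (minus) and chr19:17405721-17405780 (minus), from RefSeq on GRCh38.p14.
IFI6: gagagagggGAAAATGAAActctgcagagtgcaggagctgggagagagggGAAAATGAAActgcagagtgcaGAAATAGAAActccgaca
BST2: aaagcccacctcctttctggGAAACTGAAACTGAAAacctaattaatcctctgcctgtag

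Of 50 cytosolic ribosomal protein genes 49 fell, none rose, and the median was -0.84. RPLP0, a protein of the ribosomal stalk, had 1010 and 1060 CPM at 48 h and 1684, 1940 and 2040 CPM at 24 h (1.82-fold lower, adjusted p = 6.87e-09), against a mean of 2537 CPM without drug. RPSA was 2.02-fold lower. The list took 2.51% and 2.67% of all counts at 48 h, against 3.32%, 3.76% and 4.60% at 24 h. The highest of these shares was in the third 24 h library. Without it 48 of the 50 still fell and the median was -0.62. RPL37, named after its values were seen, had 303 and 223 CPM at 48 h and 368, 410 and 1161 CPM at 24 h.

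**Figure D2:**
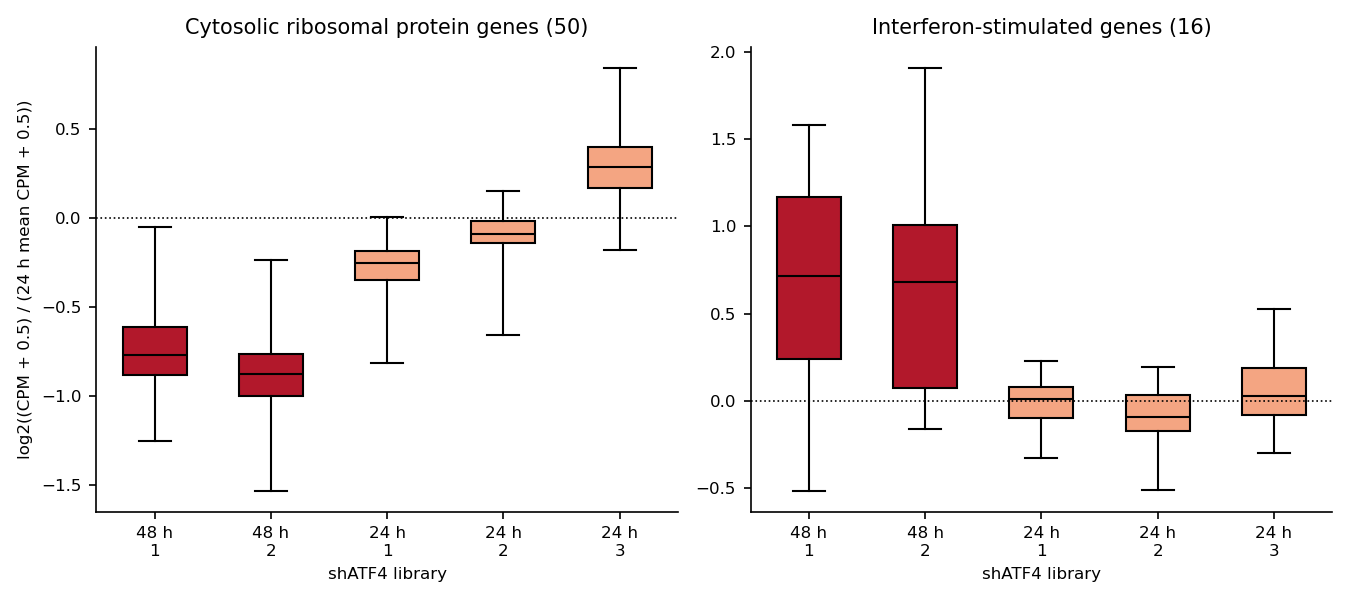
Log2 ratio of each member's CPM plus 0.5 to its mean over the 24 h libraries plus 0.5 (vertical axes), per shATF4 library (horizontal axes), for 50 ribosomal protein genes (left) and 16 interferon-stimulated genes (right); boxes span the quartiles with the median, whiskers the full range. Ribosomal protein medians are -0.77 and -0.88 at 48 h and -0.25, -0.09 and 0.29 at 24 h, and interferon medians are 0.72 and 0.68 at 48 h and within 0.09 of 0 at 24 h.

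Ribosome biogenesis genes went the same way, with 19 of 25 lower, 2 higher and a median of -0.54. FBL, the rRNA methyltransferase fibrillarin, fell 1.93-fold, BYSL 1.80-fold and POLR1B, a subunit of RNA polymerase I, 1.55-fold. Of 21 translation factors 16 fell and 1 rose (median -0.32), with EIF3E 1.70-fold and EEF1A1 1.62-fold lower. Small nucleolar RNA host genes, whose spliced RNAs carry the same kind of start, had 5 of 12 lower and none higher (median -0.17). Without the third 24 h library 5 fell, 2 rose and the median was 0.00. A start resembling the terminal oligopyrimidine (TOP) motif, by which mTORC1 controls translation of such mRNAs, was taken as a C followed by at least 4 pyrimidines within 5 bases of the annotated start. It was found in 32 of 38 ribosomal protein windows and 7 of 14 translation factor windows, against 21.1% of all windows. Starts of 4 genes are shown to make the run visible, in capitals, from 10 bases before the start. RPLP0 is chr12:120201092-120201121 (minus), RPSA chr3:39406710-39406739 (plus), RPS12 chr6:132814559-132814588 (plus) and EEF1A1 chr6:73521013-73521042 (minus), from RefSeq on GRCh38.p14.
RPLP0: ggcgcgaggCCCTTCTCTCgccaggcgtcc
RPSA: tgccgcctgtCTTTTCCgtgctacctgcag
RPS12: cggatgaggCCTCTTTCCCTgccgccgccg
EEF1A1: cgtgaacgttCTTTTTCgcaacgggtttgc

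Cell cycle genes divided by phase. Of 26 S-phase and replication genes 13 fell and 2 rose (median -0.20), with 4 rises without the third 24 h library. POLA1, the catalytic subunit of the polymerase that primes replication, had 80.6 and 81.0 CPM at 48 h and 152, 137 and 132 CPM at 24 h (1.73-fold lower, adjusted p = 7.58e-08). E2F1, an activator of S-phase genes, went the other way, with 157 and 165 CPM at 48 h and 97.9, 101 and 87.9 CPM at 24 h (1.68-fold higher, adjusted p = 5.61e-07). Of 28 G2 and mitosis genes 17 rose and 2 fell (median 0.29). CENPA, the centromeric histone, had 39.6 and 39.1 CPM at 48 h and 18.6, 18.5 and 18.6 CPM at 24 h (2.12-fold, adjusted p = 1.33e-08), against a mean of 30 CPM without drug. TPX2, PTTG1 and CDC25C rose 1.31-fold, 1.5-fold and 1.58-fold. The list as a whole stayed below its untreated level. It summed to 0.378% to 0.390% of TMM-scaled counts at 48 h, 0.314% to 0.336% at 24 h and 0.453% to 0.475% without drug.

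Clustered histone genes showed the largest list median, 2.66, with 9 members higher and none lower of 10 that passed the filter, from 13 listed. HIST1H2BK had 57.1 and 68.1 CPM at 48 h and 10.1, 10.6 and 11.1 CPM at 24 h (5.88-fold, adjusted p = 2.37e-12), against a mean of 34.5 CPM without drug. HIST1H2BD rose 8.91-fold and HIST1H2AC 6.33-fold. Most histone mRNAs lack a poly(A) tail, so libraries made on poly-T beads measure mainly their polyadenylated forms, and reads can be shared among near-identical histone genes.

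Of 21 p53 targets 8 rose (38.1%, against 23.7% of all genes), with a median of 0.04. The 5 that fell (23.8%) were near the share of all genes (24.5%), and without the second 48 h library 3 were lower. TP53INP1, a pro-apoptotic p53 target, rose 3.76-fold, BBC3, the BH3-only protein PUMA, 2.60-fold and DDB2, a repair factor, 1.42-fold. Of 18 death receptor and BCL2 family genes 6 rose and 3 fell. BMF, a BH3-only killer protein, had 6.53 and 7.59 CPM at 48 h and 2.12, 1.59 and 2.15 CPM at 24 h (3.58-fold, adjusted p = 1.19e-06), and BCL2L11, which encodes BIM, and PMAIP1, which encodes NOXA, rose 1.5-fold and 1.46-fold. Of 20 genes of 5-FU and pyrimidine metabolism 6 rose and 9 fell (median -0.15). UMPS, which converts 5-FU to its ribonucleotide, fell 1.66-fold, RRM1, the large subunit of ribonucleotide reductase, fell 1.57-fold, and UPP1, uridine phosphorylase, rose 1.41-fold. GGH, the hydrolase that shortens folate polyglutamates, had 286 and 291 CPM at 48 h and 179, 169 and 198 CPM at 24 h (1.59-fold higher, adjusted p = 2.03e-06). Of 17 recombination and repair genes 2 rose and 4 fell, with 4 rises under upper-quartile scaling, and the smallest p was that of PALB2, the partner of BRCA2 (1.68-fold lower).

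Of 27 proteasome subunits 22 fell and none rose (median -0.50), with PSMB7 1.98-fold and PSMC3 1.92-fold lower. Of 22 nuclear respiratory chain genes 18 fell and none rose (median -0.52). The 24 h libraries were uneven for both lists. Proteasome subunits summed to 0.350% to 0.351% of TMM-scaled counts at 48 h and 0.450% to 0.572% at 24 h. Respiratory chain genes summed to 0.354% to 0.360% at 48 h and 0.474% to 0.608% at 24 h. Of 19 hypoxia and glycolysis genes 10 fell and 2 rose (median -0.30), with 4 rises without the first 24 h library. LDHA, lactate dehydrogenase A, had 747 and 733 CPM at 48 h and 1345, 1433 and 1559 CPM at 24 h (1.95-fold lower, adjusted p = 1.68e-09). NDRG1, a hypoxia- and stress-induced gene of the same list, had 16 and 15.8 CPM at 48 h and 3.37, 2.76 and 4.25 CPM at 24 h (4.55-fold higher, adjusted p = 2.91e-09). Heat shock proteins fell in 10 of 15 cases (3 rose, median -0.32), and ER chaperones and unfolded protein response genes in 14 of 22 (4 rose, median -0.32). HSPA5, the main ER chaperone, fell 1.34-fold and CRELD2 1.75-fold, while HERPUD1, a factor of ER-associated degradation, rose 1.72-fold. Cholesterol and fatty acid synthesis genes fell in 13 of 23 cases and rose in 1 (median -0.35), with DHCR7, the last enzyme of cholesterol synthesis, 1.74-fold lower. NRF2 targets showed 3 of 18 higher and 8 lower. The falls became 5 without the second 48 h library and 5 with the 5 libraries alone.

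Lysosome and autophagy genes rose in 12 of 20 cases and fell in 1 (median 0.46). WIPI1, an autophagy protein, had 10.2 and 13.2 CPM at 48 h and 3.06, 3.52 and 4.25 CPM at 24 h (3.23-fold, adjusted p = 1.06e-07). MAP1LC3B, the autophagosome protein LC3B, rose 1.77-fold. Of 13 protein genes of the mitochondrial genome 4 fell and none rose. MT-CO2, a subunit of cytochrome c oxidase, had 1053 and 1251 CPM at 48 h and 1969, 1820 and 2714 CPM at 24 h. Without the low-count filter 8 of these genes fell, with the shATF4 libraries alone 7 did, and without the third 24 h library 3 did. Mitochondrial ribosomal RNA took 0.918% and 0.955% of counts at 48 h and 1.23%, 1.14% and 1.45% at 24 h, and its part in these values was not tested.

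Genes of cell identity moved in both directions. Of 20 colon differentiation genes 13 passed the filter, of which 3 rose and 6 fell. KRT20, a keratin of mature colonocytes, had 1.65 and 1.75 CPM at 48 h and 7.17, 7.19 and 8.15 CPM at 24 h, against a mean of 1.33 CPM without drug (4.41-fold lower over the second day, adjusted p = 5.55e-08). CEACAM5, the carcinoembryonic antigen, was 4.37-fold lower, and CDX2, the intestinal transcription factor, had 34.8 and 35.6 CPM at 48 h and 14.6, 16 and 12 CPM at 24 h (2.49-fold higher, adjusted p = 1.02e-07). Of 22 stratified keratins, kallikreins and related genes 16 passed, of which 10 rose and 3 fell (median 0.82). KLK10 rose 6.54-fold, SLPI, a protease inhibitor, 7.34-fold and KLK6 2.11-fold. KLK5 had 46 counts in the 48 h libraries together and 0 at 24 h, which makes it at least 20-fold higher (against 3 counts over the 24 h group).

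Among 15 mesenchymal and invasion genes 11 passed the filter, of which 4 rose and 3 fell. FN1, fibronectin, had 93.5 and 93.6 CPM at 48 h and 323, 269 and 249 CPM at 24 h (3.0-fold lower, adjusted p = 5.74e-11), with a mean of 371 CPM without drug. CDH1, E-cadherin, fell 1.59-fold. Wnt targets and stem cell genes showed 10 of 17 lower and 4 higher (median -0.40). The 4 rises became 2 without the third 24 h library, 2 without the second 48 h library and 2 with the shATF4 libraries or the 5 libraries alone, and the 10 falls became 6 without the first 48 h library. SMOC2 fell 3.10-fold, ZNRF3, a Wnt receptor ubiquitin ligase, 2.02-fold and EPHB2 1.67-fold, while CD44 rose 1.85-fold. AP-1 and immediate early genes rose in 15 of 20 cases and fell in 1 (median 0.71). EGR1 had 132 and 127 CPM at 48 h and 69.2, 64.0 and 45.7 CPM at 24 h (2.18-fold, adjusted p = 1.56e-07), and the ERK phosphatases DUSP5 and DUSP6 rose 2.31-fold and 2.02-fold.

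The same step in scramble cells, which shares no library with that of shATF4 cells, showed where the knockdown line differed. In scramble cells 6621 genes were called (38.3%), 3249 higher (18.8%) and 3372 lower (19.5%), against 8349 (48.2%) in shATF4 cells. The order of these counts depends on the fit. With each line tested on its own 5 libraries alone, 8470 genes were called in scramble cells and 6648 in shATF4 cells. Under upper-quartile scaling 60.2% of the called genes were higher, against 49.1% under TMM, and 4363 genes were called without the second 48 h library. Both lines called 4693 genes, 56.2% of the shATF4 calls and 70.9% of the scramble calls, 4558 of them in the same direction. The difference between the lines in the change from 24 h to 48 h, tested as an interaction, was called for 1481 genes (8.56%), 742 with the more positive change in shATF4 cells (4.29%) and 739 with the more negative one (4.27%). This count moved with single libraries. It was 862 and 788 without the first and the second 48 h library of shATF4 cells, 658 and 592 without those of scramble cells, and 969 without the first 24 h library of scramble cells. Of the 1481 genes, 670 were called in shATF4 cells alone, 323 in scramble cells alone, 344 in both in the same direction and 135 in both in opposite directions. Among the 344, the change was larger in shATF4 cells for 261.

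**Figure D3:**
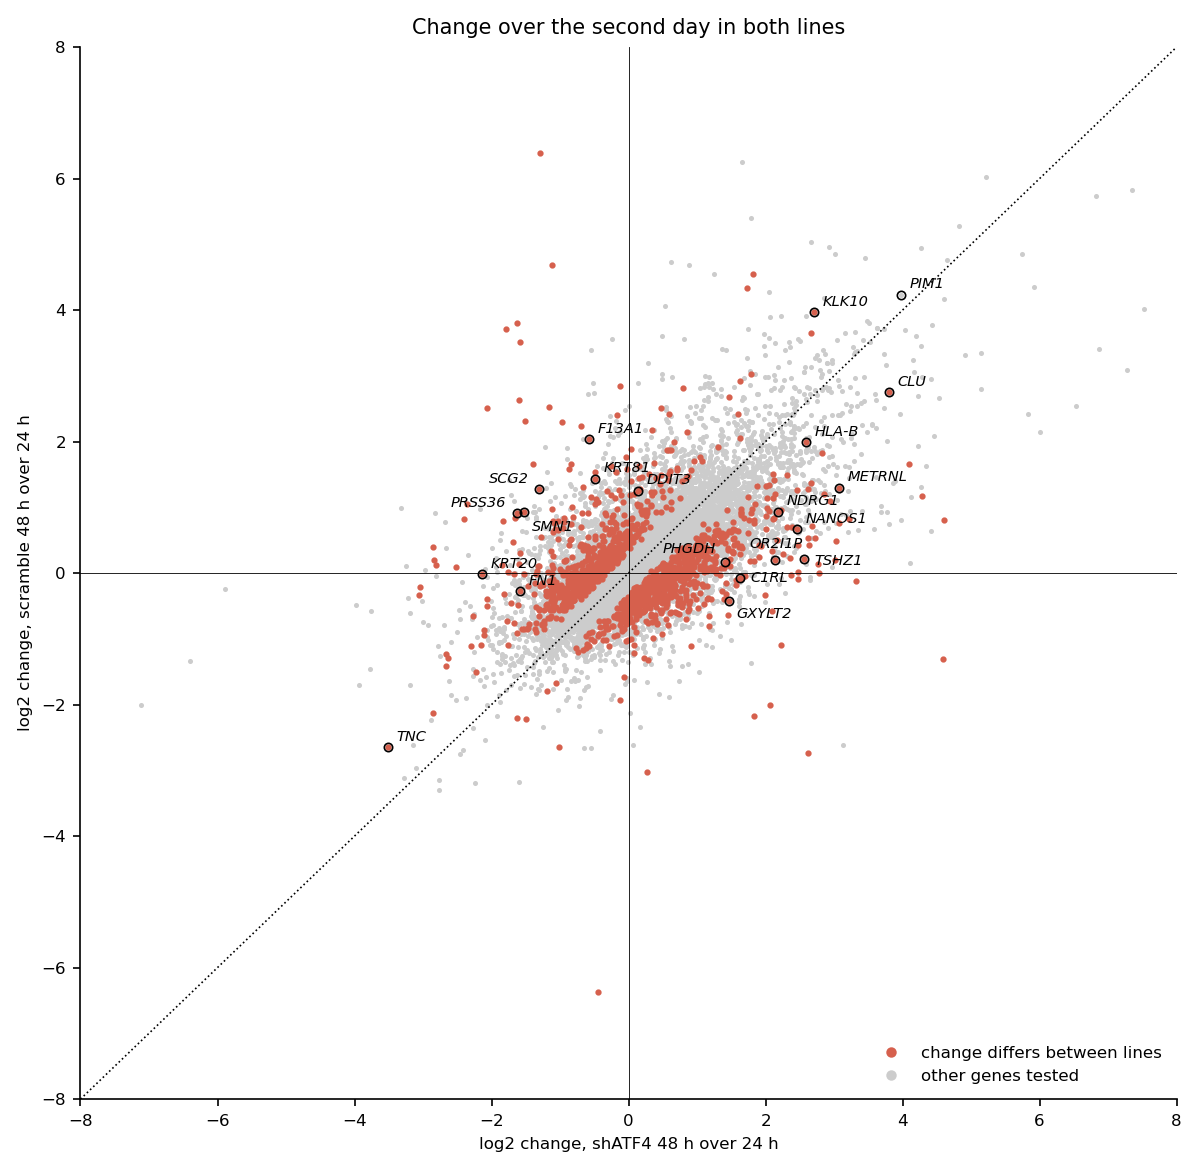
Log2 change from 24 h to 48 h of each gene tested, in shATF4 cells (horizontal axis) and in scramble cells (vertical axis); the dotted line marks equal change. Red points are the 1481 genes whose change differed between the lines, and named genes are circled. SCG2, PRSS36, F13A1 and KRT81 lie at the upper left, lower at 48 h in shATF4 cells and higher at 48 h in scramble cells, and TSHZ1, NANOS1 and METRNL lie to the right.

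Among stress response genes 3 of 17 members had the more negative change in shATF4 cells and none the more positive one, against 4.27% and 4.29% of all genes. The list as a whole did not lean that way: its median difference was 0.10, with 9 members positive and 8 negative, called or not. DDIT3 averaged 10.6 CPM at 48 h and 9.63 CPM at 24 h in shATF4 cells, and 18.5 CPM at 48 h and 7.77 CPM at 24 h in scramble cells (difference in log2 change -1.12, adjusted p = 0.00204). PPP1R15A differed by -0.84 (adjusted p = 0.000145) and GDF15 by -0.57 (adjusted p = 0.00466, or 0.0639 without the second 48 h library of scramble cells). For CHAC1 the difference was 0.52 and did not pass the test (adjusted p = 0.172), nor did that of CDKN1A (0.11, adjusted p = 0.781) or TYMS (-0.13, adjusted p = 0.528). CCL20 differed by 0.28 (adjusted p = 0.364, or 0.0265 without the third 24 h library of shATF4 cells).

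Of 15 amino acid synthesis and one-carbon enzymes, 4 had the more positive change in shATF4 cells and 1 the more negative one (median difference 0.30). PHGDH averaged 64.3 CPM at 48 h and 24.3 CPM at 24 h in shATF4 cells, against 62.4 CPM at 48 h and 55.3 CPM at 24 h in scramble cells (difference 1.23, adjusted p = 1.48e-05). The lines were apart at 24 h and already without drug (means of 28.0 CPM in shATF4 and 53.6 CPM in scramble cells). Their means were close at 48 h. FN1 was the higher in shATF4 cells at 24 h and already without drug (means of 371 CPM in shATF4 and 125 CPM in scramble cells). It averaged 93.6 CPM at 48 h and 281 CPM at 24 h in shATF4 cells, and 95.6 CPM at 48 h and 116 CPM at 24 h in scramble cells (difference -1.31, adjusted p = 4.44e-06). CLU rose in both lines and by more in shATF4 cells (difference 1.04, adjusted p = 0.00220), and TNC fell in both and by more in shATF4 cells (difference -0.87, adjusted p = 4.16e-05). KRT20 fell in shATF4 cells and averaged 10.9 CPM at 48 h and 11.1 CPM at 24 h in scramble cells (difference -2.12, adjusted p = 4.51e-05). NDRG1 differed by 1.25 (adjusted p = 0.00219). HLA-B differed by 0.60 (adjusted p = 0.00898, or 0.0530 without the second 48 h library of scramble cells).

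Among called protein-coding genes that averaged 2 CPM or more over the 10 treated libraries, the 6 most negative differences were those of F13A1, SCG2, PRSS36, SMN1, KRT20 and KRT81, and all but KRT20 were higher at 48 h in scramble cells. SCG2, the neuroendocrine granin secretogranin II, had 9.22 and 8.58 CPM at 48 h and 20.7, 17.9 and 27.6 CPM at 24 h in shATF4 cells, and averaged 54.2 CPM at 48 h and 22.3 CPM at 24 h in scramble cells (difference -2.59, adjusted p = 6.36e-07). PRSS36, a serine protease, averaged 4.38 CPM at 48 h and 13.6 CPM at 24 h in shATF4 cells, and 19.6 CPM at 48 h and 10.4 CPM at 24 h in scramble cells (difference -2.55, adjusted p = 5.59e-06). F13A1, coagulation factor XIII subunit A, differed by -2.61 (adjusted p = 3.22e-05) and the hair keratin KRT81 by -1.92 (adjusted p = 6.36e-07). Their own falls in shATF4 cells rested on single libraries. That of KRT81 (log2 -0.48) had an adjusted p of 0.0554 without the first 48 h library. That of F13A1 (log2 -0.58, adjusted p = 0.0220) had 0.223 without the first 48 h library, 0.0532 and 0.0894 without the first and the third 24 h library, and 0.0685 with the 5 libraries alone. SMN1 differed by -2.46 (adjusted p = 0.000844), but its reads are shared with the near-identical copy SMN2. KLK10 rose in both lines and by less in shATF4 cells (difference -1.26, adjusted p = 0.00602).

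By the same rule, the 6 most positive differences were those of TSHZ1, OR2I1P, GXYLT2, NANOS1, METRNL and C1RL. TSHZ1, a zinc finger transcription factor, had 4.83 and 4.43 CPM at 48 h and 0.873, 0.760 and 0.699 CPM at 24 h in shATF4 cells, and averaged 3.22 CPM at 48 h and 2.78 CPM at 24 h in scramble cells (difference 2.35, adjusted p = 0.000455). C1RL, a serine protease related to complement C1r, averaged 37.6 CPM at 48 h and 12.1 CPM at 24 h in shATF4 cells, and 20.3 CPM at 48 h and 21.3 CPM at 24 h in scramble cells (difference 1.70, adjusted p = 2.43e-06). NANOS1, an RNA-binding translational repressor, differed by 1.79 (adjusted p = 0.000305). OR2I1P, an olfactory receptor gene within the HLA region, differed by 1.94 (adjusted p = 1.03e-05). METRNL, a secreted protein, differed by 1.78 (adjusted p = 0.0103, or 0.0590 without the first 48 h library of scramble cells). GXYLT2, a xylosyltransferase, differed by 1.88 (adjusted p = 0.0169), and its call was lost without the first or the second 48 h library of scramble cells (0.0668 and 0.0661) or the first of shATF4 cells (0.0516).

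Among whole lists, the keratin and kallikrein list had a median of 0.82 in shATF4 cells and 1.52 in scramble cells, with 6 of 16 members lower and none higher in the difference. The mitochondrial genome's protein genes had a median of -0.40 with 4 falls in shATF4 cells and of 0.18 with 4 rises in scramble cells, with 1 member called in the difference. The ribosomal protein list had medians of -0.84 in shATF4 cells and -0.57 in scramble cells, and none of its 50 members was called in the difference. Without the third 24 h library of shATF4 cells, the shATF4 median was less negative and nearer to that of scramble cells, as given above. The interferon list had medians of 0.69 in shATF4 cells and 0.71 in scramble cells, with 1 member, OAS3, called in the difference.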

How the data were processed

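The authors deposited raw read counts per gene for 16 libraries of poly(A)-selected RNA. The submitters' processing notes name featureCounts 1.5.0-p3 and the build GRCh38 (hg38). For the aligner, annotation release and strand setting nothing was given in the sources used here, so reads of a gene and an overlapping antisense gene cannot be told apart. The members and lists were chosen with earlier results of these data known.

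Genes were filtered with filterByExpr, scaled by TMM and tested with the edgeR 4.0.16 quasi-likelihood test (R 4.3.3) in 1 fit of 6 groups, on all 16 libraries (10 residual degrees of freedom), with Benjamini-Hochberg adjustment over 17309 genes and calls at an adjusted p under 0.05. No exact test over libraries can go below p = 0.2 with 2 libraries against 3. Totals were 14571611 to 17824188 counts per library, which limits the precision of genes at a few CPM. The text names a set of ATF4, stress, cytokine and differentiation genes, the 10 largest log2 rises and falls at 2 CPM or more without overlap, the 5 largest rises and falls in CPM, up to 4 members per list by smallest p, and the 6 largest differences each way between the lines. Other named list members were chosen after their values were seen. DESeq2 1.42.0, other scalings, other filters, fewer libraries, a replicate block and each library left out were alternatives. Promoter and start sequences come from RefSeq, GRCh38.p14. Results for some genes are not reported here.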

Additional observations from a re-analysis of the deposited data

Results flagged for a closer look

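The change from 24 h to 48 h differed between the lines for 1481 genes, by the interaction test in edgeR's quasi-likelihood fit. Values here are differences in log2 change, shATF4 minus scramble cells, and no cause was tested. Named genes with an absolute difference of at least 0.5 are given.

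More negative in shATF4 cells were the stress genes DDIT3 (-1.12), PPP1R15A (-0.84) and GDF15 (-0.57), the matrix and adhesion genes FN1 (-1.31), TNC (-0.87), ADAMTS18 (-0.72) and CDH1 (-0.51), and the keratins and kallikreins KRT20 (-2.12), KLK10 (-1.26), KLK6 (-0.63) and KRT81 (-1.92). Others in this direction were SCG2 (-2.59), F13A1 (-2.61), PRSS36 (-2.55), SMN1 (-2.46), DEC1 (-1.44), MYRIP (-1.34), LIX1 (-1.25), SNHG8 (-1.08), HIST1H2AC (-0.99), PALB2 (-0.72), AREG (-0.60), PSMC3 (-0.56), BYSL (-0.51) and MT-ND2 (-0.51).

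More positive in shATF4 cells were PHGDH (1.23), NDRG1 (1.25), CLU (1.04), HLA-B (0.60), EXO1 (0.75), CDX2 (0.74), SMOC2 (0.57), DUSP6 (0.54), TSHZ1 (2.35), OR2I1P (1.94), GXYLT2 (1.88), NANOS1 (1.79), METRNL (1.78) and C1RL (1.70). OR2I1P lies in the HLA region and SMN1 has a near-identical copy, so reads could be split between genes.

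When each of the 10 treated libraries was left out in turn, 13 of these calls were lost at least once. The calls of LIX1, MT-ND2, AREG and BYSL were lost in 5 or more of the 10 omissions, with adjusted p-values up to 0.176 for LIX1, 0.218 for MT-ND2, 0.151 for AREG and 0.144 for BYSL. DEC1 and CDX2 lost theirs in 4, with values up to 0.161 and 0.0764, GXYLT2 in 3 (up to 0.0668) and MYRIP in 2 (up to 0.0626). GDF15 (0.0639), HLA-B (0.0530), METRNL (0.0590), ADAMTS18 (0.105) and KLK6 (0.0605) lost theirs in 1.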

How the results depend on the processing

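The count of genes called in shATF4 cells was 8015 in DESeq2, 6648 with the 5 libraries alone, 7707 under a stricter filter and 6289 to 8165 when 1 library was left out. In scramble cells the count was 4363 to 5882 with 1 library left out, against 6621, and 8470 with its 5 libraries alone; for the difference between the lines it was 592 to 2006, against 1481. Same-numbered libraries deviated together in some pairs only (correlations -0.0917 and 0.418 in shATF4 cells, 0.203 and 0.275 in scramble cells), so the numbers were not taken as a pairing; a replicate block gave 8364 calls in shATF4 cells, 6711 in scramble cells and 1878 in the difference. Leaving out 1 library changed the sign of ATF4 (-0.035 to 0.22), CXCL8 (-0.41 to 0.10, with 0.0053 without the third 24 h library), and the list medians of p53 targets (-0.031 to 0.15), death receptors and the BCL2 family (-0.024 to 0.14) and recombination and repair (-0.11 to 0.041); upper-quartile scaling put the last at 0.029. In size, the medians of 24 of the 34 lists were marked as moved at least once with 1 library left out, and of 24 under other settings. The causes were not tested. Upper-quartile scaling raised the median change of all genes to 0.10, against 0.01. Of the gene changes in shATF4 cells, 857 of the values with 1 library left out and 1383 under other settings kept direction and call; 9 and 5 lost the call. For genes under about 1 CPM, depth limits what can be told.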

Other observations

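Classes of genes moved unequally between 48 h and 24 h in shATF4 cells, where 23.7% of all genes tested were higher and 24.5% lower. Long intergenic and antisense RNAs called higher, and processed pseudogenes called lower, had shares near these. The shares in the opposite direction were the smaller ones. Of 935 long intergenic RNAs tested, 256 were called higher and 84 lower at 48 h (27.4% and 8.98%), with a median log2 change of 0.39. Of 1036 antisense RNAs 211 were higher and 81 lower (20.4% and 7.82%), with a median of 0.32, though without a known strand setting their reads cannot be told from those of the gene opposite. Of 538 processed pseudogenes 41 were higher and 134 lower (7.62% and 24.9%), with a median of -0.31; reads of these can come from their parent genes. Of 13633 protein-coding genes 3346 were higher and 3817 lower (24.5% and 28.0%), with a median of -0.02.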
